A study of Mus musculus with 8 samples.

Results

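The fibroblast subtype genes comprise 10 genes used as names for the alveolar and adventitial fibroblasts of the mouse lung, and not all are particular to these cells. *Pdgfra*, *Tcf21*, *Npnt*, *Inmt* and *Mfap4* are named for alveolar fibroblasts, and *Dcn*, *Lum*, *Pi16*, *Dpt* and *Gsn* for adventitial fibroblasts. They were listed by name as genes of these cells, by a rule that uses no measured value although earlier results of these data were known, and were found by identifier among the 48709 genes of a count table. mRNA was sequenced from 8 lung tumors of mice on a mixed B6J/129S4vJae background, all of the same model, labelled *K*. All tumors were started by endotracheal delivery of LentiCRISPRv2Cre, a lentiviral vector that carries Cas9, a guide RNA and Cre recombinase. The 4 *K-Ctrl* tumors received a control guide against *GFP*, and the 4 *K-Setd2KO* tumors a guide against *Setd2*, the gene of the enzyme that trimethylates lysine 36 of histone H3. According to the study the *K-Setd2KO* tumors were low-grade adenomas and the control tumors were matched to them for stage by histology, while the sample titles speak of lung adenocarcinoma. The study gives an upper limit for age at tumor start and no age per mouse, and the labels' extraction text speaks of cell lines where their design text speaks of frozen tumors.

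Alveolar fibroblasts lie in the walls of the alveoli beside the epithelium and respond to platelet-derived growth factor through PDGFRA. Adventitial fibroblasts lie in the connective tissue sleeves around large vessels and airways and are rich in collagen-associated proteoglycans. In a whole tumor their transcripts are mixed with those of tumor epithelium, endothelium and leukocytes, and the Cre vector of this model was delivered through the airway and not directed to fibroblasts. Fewer fibroblasts in a tumor and less of a transcript per fibroblast cannot be told apart in such bulk samples.

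Of the 10 members, 5 were lower in *K-Setd2KO* tumors, 0 were higher and 5 did not pass the test. The members that fell were *Pdgfra*, *Tcf21* and *Inmt* of the alveolar genes and *Dpt* and *Gsn* of the adventitial genes, by 3.04-fold to 9.47-fold. *Dcn*, a classical adventitial gene, did not pass the test and was the single member with an estimate above 0. The tests were edgeR quasi-likelihood tests with Benjamini-Hochberg adjustment over the 14929 genes tested, among which 7.74% were called lower, 4.97% higher and 12.7% in either direction at an adjusted p of 0.05. At an unadjusted p under 0.05 edgeR put 0 members higher, as did DESeq2 and limma voom after adjustment. The 5 members that passed all fell over 2-fold, as did 6.39% of all genes tested. The median log2 fold change (*K-Setd2KO* minus *K-Ctrl*) was -2.02 over the alveolar members and -1.48 over the adventitial members, against 0.03 over all genes tested.

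The bases upstream of the gene start are shown for the 3 members with the largest falls, *Dpt*, *Inmt* and *Tcf21*, since these were the transcripts that differed most between the genotypes. They come from RefSeq on GRCm38.p6, are written 5′ to 3′ on the strand of the gene and stop before the earlier of the RefSeq and GENCODE starts. The stretch of *Dpt* is chr1:164796413-164796643 on the plus strand, that of *Inmt* is chr6:55175044-55175240 on the minus strand and that of *Tcf21* is chr10:22820144-22820393 on the minus strand. Capitals mark 2 motifs that were searched on both strands, an E-box and a TATA box core. The E-box searched was CAGCTG, an element read by basic helix-loop-helix proteins, the class to which TCF21 belongs, and the TATA box core was TATAAA.
Dpt: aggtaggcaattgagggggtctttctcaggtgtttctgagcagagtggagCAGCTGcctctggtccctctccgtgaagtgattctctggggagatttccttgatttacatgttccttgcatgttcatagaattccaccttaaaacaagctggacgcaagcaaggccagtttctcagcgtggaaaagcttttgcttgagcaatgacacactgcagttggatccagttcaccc
Inmt: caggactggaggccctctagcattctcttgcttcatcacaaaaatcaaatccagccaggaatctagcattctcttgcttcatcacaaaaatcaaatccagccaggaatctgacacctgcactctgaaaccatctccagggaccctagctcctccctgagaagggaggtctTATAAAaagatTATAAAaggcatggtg
Tcf21: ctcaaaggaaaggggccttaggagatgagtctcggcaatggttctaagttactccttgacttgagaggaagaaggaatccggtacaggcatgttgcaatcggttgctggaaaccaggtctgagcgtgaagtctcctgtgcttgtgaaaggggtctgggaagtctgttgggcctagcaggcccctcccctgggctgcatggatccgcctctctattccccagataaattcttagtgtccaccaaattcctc

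RefSeq windows of 300 bases (250 before and 50 after the start) were held for 7 of the 10 members, 10 windows in all. CAGCTG, which reads the same on both strands, occurred in 5 of these windows, from *Inmt*, *Pi16*, *Dpt* and *Gsn*, and in 16.3% of 32851 windows of all genes. TATAAA occurred in 2 of the windows, from *Inmt* and *Dpt*, and in 13.6% of all windows. The *Dpt* window held CAGCTG 2 times, of which the match nearer the start lies outside the stretch printed here, as do the TATAAA of *Dpt* and the CAGCTG of *Inmt*. The motifs do not overlap in the printed stretches, and these matches describe letters only.

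Library totals ranged from 11191015 to 21290402 counts in *K-Ctrl* and from 5806599 to 20185390 in *K-Setd2KO*, so that 3 counts corresponded to 0.138 to 0.513 CPM (read counts divided by each library's TMM-adjusted size). *Setd2* itself averaged 140 ± 8.81 CPM in control and 136 ± 15.5 CPM in knockout tumors (SD, n = 4 each; log2 fold change -0.05, SE 0.115, adjusted p = 0.824), and a CRISPR cut need not lower the transcript. By expression of sex-specific genes, *K-Ctrl* replicates 1, 3 and 4 and *K-Setd2KO* replicate 3 were male and the other tumors female, so sex was unevenly spread over the genotypes. *K-Ctrl* replicate 1 was the highest control tumor for 10 of the 10 members, and *K-Setd2KO* replicate 3 was the lowest of all tumors for 5 of them. Nothing in the labels says whether tumors came from separate mice, so p-values measure the spread between these tumors.

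*Pdgfra* (ENSMUSG00000029231.15, chr5:75152292-75198215, plus strand, GRCm38) encodes the receptor that takes up PDGF-A signals in alveolar fibroblasts. Its level was 176, 95.4, 86.5 and 97.8 CPM in *K-Ctrl* replicates 1 to 4 and 58.9, 34.0, 18.0 and 38.3 CPM in *K-Setd2KO* replicates 1 to 4. Every *K-Setd2KO* tumor lay below every *K-Ctrl* tumor, and *K-Ctrl* replicate 1 stood far above its group. *Pdgfra* was 3.05-fold lower (log2 fold change -1.61, 95% interval -2.42 to -0.79, SE 0.360, adjusted p = 0.0236, edgeR). Without *K-Ctrl* replicate 1 the log2 fold change was -1.32 and the adjusted p 0.0538, and without *K-Setd2KO* replicate 4 they were -1.62 and 0.0547. The ligands *Pdgfa* to *Pdgfd* and the second receptor *Pdgfrb* were read beside it, and 1 of these 5 genes was called lower. *Pdgfd*, a ligand that binds mainly PDGFRB, fell by 1.21 on the log2 scale (SE 0.328, adjusted p = 0.0421, edgeR), and *Pdgfrb*, the receptor of pericytes and many fibroblasts, had a log2 fold change of -0.81 (adjusted p = 0.232).

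*Tcf21* (ENSMUSG00000045680.7, chr10:22817279-22820128, minus strand) encodes a helix-loop-helix transcription factor of the embryonic and adult lung mesenchyme. Its level was 20.7, 8.40, 8.77 and 5.80 CPM in the *K-Ctrl* tumors and 3.34, 1.68, 0.554 and 2.05 CPM in the *K-Setd2KO* tumors. The groups did not overlap, although the lowest value rests on few counts, since the gene had 796 counts over all 8 libraries. *Tcf21* was 5.63-fold lower (log2 fold change -2.49, 95% interval -3.75 to -1.23, SE 0.561, adjusted p = 0.0232, edgeR). With sex as a term the log2 fold change was -2.88 and the adjusted p 0.0548. The adjusted p was 0.0575 without *K-Ctrl* replicate 1, 0.0514 without *K-Ctrl* replicate 3 and 0.0529 without *K-Setd2KO* replicate 4, with log2 fold changes of -1.99, -2.59 and -2.52. Among 8 other transcription factors of lung mesenchyme, 6 could be tested and 3 were lower, with a list median of -1.10. *Meox2*, a homeobox factor, went from 7.02 ± 2.24 to 1.70 ± 0.771 CPM (SD, n = 4 each), a log2 fold change of -2.04 (adjusted p = 0.0210). *Prrx1*, a homeobox factor of connective tissue fibroblasts, went from 11.9 ± 3.08 to 5.52 ± 1.66 CPM (log2 fold change -1.11, adjusted p = 0.0359).

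*Inmt* (ENSMUSG00000003477.5, chr6:55170626-55175043, minus strand) encodes indolethylamine N-methyltransferase, an enzyme that methylates tryptamine and related amines and is abundant in lung. It was measured at 379.8, 80.2, 162 and 45.3 CPM in the *K-Ctrl* tumors and at 30.7, 15.1, 21.1 and 27.6 CPM in the *K-Setd2KO* tumors. The *K-Ctrl* tumors varied over a wide range while the *K-Setd2KO* tumors lay close together, and all of the latter were below the lowest control. *Inmt* was 7.08-fold lower (log2 fold change -2.82, 95% interval -4.22 to -1.43, SE 0.617, adjusted p = 0.0222, edgeR). With sex as a term the log2 fold change was -2.46 and the adjusted p 0.0928. Without *K-Ctrl* replicate 1 the call held at a smaller log2 fold change of -2.03 (adjusted p = 0.0318). The adjusted p was 0.0549 without *K-Ctrl* replicate 3 and 0.0637 without *K-Setd2KO* replicate 3, with log2 fold changes of -2.84 and -2.77.

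*Mfap4* (ENSMUSG00000042436.12, chr11:61485431-61488900, plus strand) encodes a microfibril-associated protein of elastic fibers. Its level was 192, 65.6, 61.5 and 29.5 CPM in the *K-Ctrl* tumors and 20.5, 13.5, 2.86 and 50.7 CPM in the *K-Setd2KO* tumors. *K-Setd2KO* replicate 4 lay above the lowest control, so the groups overlapped. The log2 fold change of -2.02 had a 95% interval of -3.84 to -0.20 and did not pass the adjustment (SE 0.803, adjusted p = 0.131, edgeR). It was -1.28 without *K-Ctrl* replicate 1, -2.81 without *K-Setd2KO* replicate 4 and -2.95 with sex as a term, and passed in none of these fits. *Mapk7* on the opposite strand overlaps this gene and had 1932 counts against 6460 for *Mfap4*, and whether counting used the strand is not given in the sources used here. Of 12 other elastic fiber genes, 2 were lower and 0 higher, with a list median of -0.88. These were *Ltbp4*, which binds latent TGF-beta to elastic fibers (log2 fold change -2.37, SE 0.412, adjusted p = 0.0112), and *Ltbp1*, its relative (-1.21, SE 0.305, adjusted p = 0.0338).

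*Npnt* (ENSMUSG00000040998.18, chr3:132881745-132950291, minus strand) encodes nephronectin, a basement membrane protein that binds integrin alpha-8 beta-1 and is made by epithelial cells as well as fibroblasts. The values were 931, 317, 478 and 611 CPM in the *K-Ctrl* tumors and 236, 766, 416 and 196 CPM in the *K-Setd2KO* tumors. *K-Setd2KO* replicate 2 had the highest value but that of *K-Ctrl* replicate 1, and the groups overlapped widely. The log2 fold change was -0.53 with a 95% interval of -1.59 to 0.52 (SE 0.465, adjusted p = 0.479, edgeR), so a fall or a small rise could not be told apart at this spread. It was -1.05 without *K-Setd2KO* replicate 2, -0.22 without *K-Ctrl* replicate 1 and -0.18 with sex as a term, and passed in none of these fits. *Itga8*, the alpha-8 subunit of that integrin, was read with the other alveolar fibroblast genes and was called lower there (84.7 ± 60.9 to 10.8 ± 6.37 CPM, log2 fold change -3.0, adjusted p = 0.0203). Among 6 further genes of nephronectin's partners and relatives, 0 were called in either direction by edgeR, and the list median was 0.00. At an unadjusted p under 0.05 edgeR put 1 lower and 1 higher, DESeq2 called 1 lower and 1 higher, and limma voom called 0. *Fras1* had a log2 fold change of 1.24 (adjusted p = 0.0992) and *Itgb1*, the integrin beta-1 subunit, of -0.36 (adjusted p = 0.131).

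**Figure D1:**
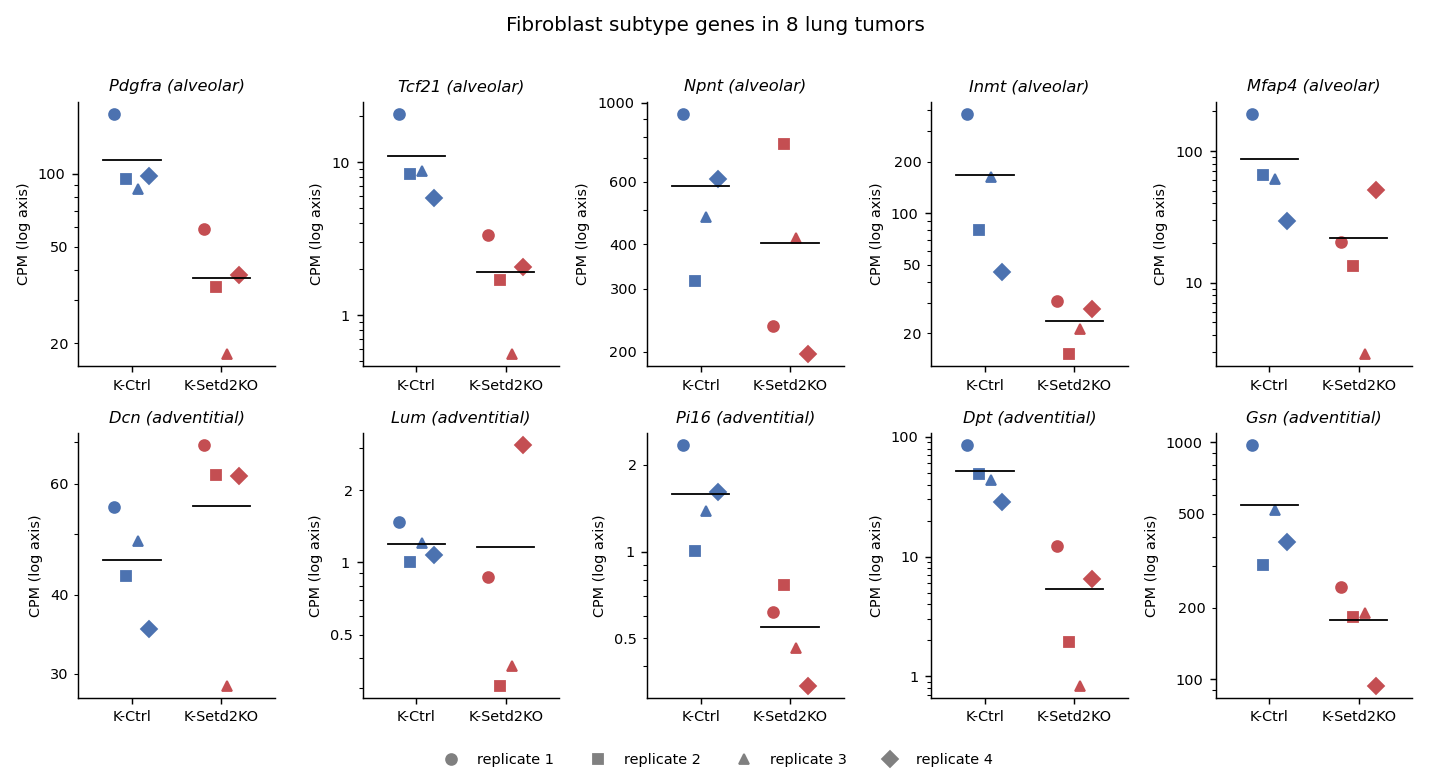
Level of each of the 10 members in CPM (log axis) in the 4 *K-Ctrl* tumors (blue) and 4 *K-Setd2KO* tumors (red), with 1 symbol per replicate number and a black line at each group's mean. The groups do not overlap for *Pdgfra*, *Tcf21*, *Inmt*, *Pi16*, *Dpt* and *Gsn*, and *K-Ctrl* replicate 1 (circle) is the highest control in every panel.

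*Dcn* (ENSMUSG00000019929.15, chr10:97479500-97518162, plus strand) encodes decorin, a small leucine-rich proteoglycan that coats collagen fibrils. It was measured at 55.0, 42.8, 48.6 and 35.3 CPM in the *K-Ctrl* tumors and at 69.0, 62.0, 28.7 and 61.8 CPM in the *K-Setd2KO* tumors. The *K-Setd2KO* tumors other than replicate 3, the male tumor of that group, lay above all controls, and replicate 3 had the lowest value of all. The log2 fold change was 0.28 with a 95% interval of -0.30 to 0.87 (SE 0.261, adjusted p = 0.503, edgeR), which leaves out a fall of the size seen for *Pdgfra*. With sex as a term the estimate was -0.05.

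*Lum* (ENSMUSG00000036446.4, chr10:97565501-97572703, plus strand) encodes lumican, another leucine-rich proteoglycan, and starts 47.3 kb after the end of *Dcn*. Its level was 1.48, 1.01, 1.20 and 1.07 CPM in the *K-Ctrl* tumors and 0.873, 0.306, 0.369 and 3.08 CPM in the *K-Setd2KO* tumors. These levels rest on 117 counts in all, and the single high value in *K-Setd2KO* replicate 4 comes from 18 counts. No difference was detectable at this depth (log2 fold change -0.17, 95% interval -1.72 to 1.37, SE 0.687, adjusted p = 0.890, edgeR). The estimate was -1.15 without *K-Setd2KO* replicate 4 and -0.79 by limma voom. The next genes of this proteoglycan cluster on chromosome 10, *Kera* and *Epyc*, had 0 and 1 counts over the 8 tumors.

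Of 9 further leucine-rich proteoglycan genes, 6 could be tested, 2 were lower and 0 higher by edgeR, with a list median of -1.01. At an unadjusted p under 0.05, 1 was higher, *Bgn*, which encodes biglycan, the close relative of decorin (621 ± 167 to 1022 ± 387 CPM, log2 fold change 0.72, adjusted p = 0.138), and DESeq2 and limma voom called 0 higher. *Ogn*, which encodes osteoglycin, went from 89.5 ± 56.5 to 5.90 ± 5.76 CPM (SD, n = 4 each), a log2 fold change of -3.99 (SE 0.847, adjusted p = 0.0200, edgeR). *Prelp* went from 103 ± 41.2 to 32.5 ± 14.1 CPM (log2 fold change -1.67, SE 0.404, adjusted p = 0.0306). The estimates of *Dcn* and *Bgn* were above 0 and did not pass the test, and their difference from *Ogn* and *Prelp* was not tested.

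*Pi16* (ENSMUSG00000024011.16, chr17:29318877-29329413, plus strand) encodes peptidase inhibitor 16, a marker of adventitial fibroblasts with progenitor features. It had 127 counts in all, at 2.34, 1.01, 1.38 and 1.61 CPM in the *K-Ctrl* tumors and 0.616, 0.765, 0.461 and 0.342 CPM in the *K-Setd2KO* tumors. The groups did not overlap, yet the lowest tumor held 2 counts and the difference missed the threshold (log2 fold change -1.48, 95% interval -2.45 to -0.50, SE 0.433, adjusted p = 0.0539, edgeR). DESeq2 gave an adjusted p of 0.0395. Groups without overlap and lower in *K-Setd2KO* occurred for 11.2% of all genes tested and for 6 of the 10 members. The 6 include *Pi16*, which passed the low-count filter through its *K-Ctrl* tumors alone. Its separation is therefore not read as support for a fall.

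*Dpt* (ENSMUSG00000026574.5, chr1:164796644-164824266, plus strand) encodes dermatopontin, an extracellular matrix protein that binds decorin and assists collagen fibril assembly. Its level was 85.0, 49.3, 43.8 and 28.5 CPM in the *K-Ctrl* tumors and 12.2, 1.91, 0.831 and 6.50 CPM in the *K-Setd2KO* tumors. The highest *K-Setd2KO* tumor lay well below the lowest control. *Dpt* was 9.47-fold lower, the largest fall among the members by edgeR (log2 fold change -3.24, 95% interval -4.89 to -1.60, SE 0.725, adjusted p = 0.0238). With sex as a term the call held (log2 fold change -4.05, adjusted p = 0.0386), as it did without *K-Setd2KO* replicate 1, where the log2 fold change was -4.19. The adjusted p was 0.0624 without *K-Ctrl* replicate 1, 0.0539 without *K-Ctrl* replicate 3 and 0.0529 without *K-Setd2KO* replicate 4, with log2 fold changes of -2.90, -3.32 and -3.32.

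*Gsn* (ENSMUSG00000026879.14, chr2:35256380-35307892, plus strand) encodes gelsolin, which severs actin filaments and is made by many cell types besides adventitial fibroblasts. The values were 969, 303, 519 and 380.1 CPM in the *K-Ctrl* tumors and 246, 183, 189.9 and 94.0 CPM in the *K-Setd2KO* tumors. The groups did not overlap, with the highest *K-Setd2KO* tumor close below the lowest control. *Gsn* was 3.04-fold lower (log2 fold change -1.61, 95% interval -2.51 to -0.70, SE 0.402, adjusted p = 0.0338, edgeR). This call was the least stable of the 5, since it held in 3 of the 8 fits that left out 1 tumor and was lost with sex as a term (log2 fold change -1.26, adjusted p = 0.146). The adjusted p was 0.0638, 0.0781, 0.0563, 0.0786 and 0.0623 without *K-Ctrl* replicates 1 and 3 and *K-Setd2KO* replicates 2, 3 and 4. The log2 fold changes there were -1.17, -1.63, -1.62, -1.635 and -1.40 in the same order. Of 6 other gelsolin family genes, 4 could be tested and 0 were called in either direction by edgeR, with a list median of -0.25. As for the nephronectin list, 1 gene was lower and 1 higher at an unadjusted p under 0.05, DESeq2 called the same numbers, and limma voom called 0. *Flii* had a log2 fold change of 0.29 (adjusted p = 0.0850) and *Capg* of -0.87 (adjusted p = 0.113).

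**Figure D2:**
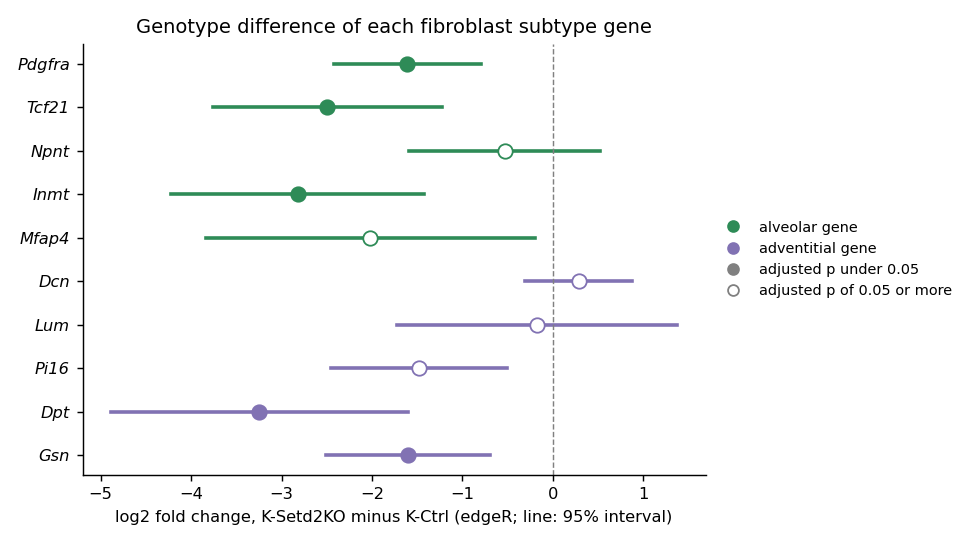
Log2 fold change (*K-Setd2KO* minus *K-Ctrl*, edgeR) of each member on the horizontal axis with its 95% interval as a line, green for alveolar and purple for adventitial genes. Filled points have an adjusted p under 0.05, and the estimates run from -3.24 for *Dpt* to 0.28 for *Dcn*, the only estimate above 0.

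The two-sided exact permutation test of log2 CPM over the 70 assignments of the tumors gave p = 0.0286, the smallest p it can give, for *Pdgfra*, *Tcf21*, *Inmt*, *Pi16*, *Dpt* and *Gsn*. For *Pi16*, kept by the low-count filter through its *K-Ctrl* tumors alone, this p is not read as support. By this exact permutation test p was 0.0571 for *Mfap4*, 0.286 for *Npnt*, 0.429 for *Lum* and 0.486 for *Dcn*. Within each sex 1 tumor stood against 3 of the other genotype, and no test was made there. Between male tumors the difference in log2 CPM was -2.66 for *Pdgfra*, -3.89 for *Tcf21*, -2.73 for *Inmt*, -5.60 for *Dpt* and -1.60 for *Gsn*. Between female tumors these were -1.16, -1.83, -1.77, -3.16 and -0.91 in the same order, so all 5 called members were lower in *K-Setd2KO* within each sex. *Dcn* was the member with opposite signs beyond a small value, at -0.66 between male and 0.58 between female tumors.

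Set on a common scale by exon length, the levels of the members spanned a wide range. In *K-Ctrl* tumors *Gsn* had 172 ± 94.3, *Npnt* 116 ± 51.9 and *Inmt* 104 ± 93.9 CPM per kb (SD, n = 4), 3 levels within each other's spread between tumors. Read within tumors, *Gsn* lay above *Inmt* in every control. *Mfap4* followed at 45.3 ± 37.2, *Dpt* at 30.0 ± 13.9 and *Dcn* at 21.8 ± 4.03 CPM per kb, again within each other's spread. *Pdgfra* (11.4 ± 4.18) and *Tcf21* (8.92 ± 5.43) were lower, and *Lum* (0.573 ± 0.100) and *Pi16* (0.397 ± 0.141) rested on few counts. In *K-Setd2KO* tumors *Npnt* (80.3 ± 51.6) and *Gsn* (56.4 ± 19.9) were still the highest, and *Dcn* at 26.6 ± 8.68 CPM per kb came next by mean, ahead of *Inmt* at 14.8 ± 4.35. *Dpt*, at 3.11 ± 3.01 CPM per kb, lay below *Dcn*.

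The balance of *Dpt* and *Dcn*, both adventitial genes whose proteins bind each other, was read within each tumor. The ratio of *Dpt* to *Dcn* per kb was 1.87, 1.39, 1.09 and 0.974 over the *K-Ctrl* replicates, against 0.214, 0.0373, 0.0350 and 0.127 over those of *K-Setd2KO*. The ratio thus lay between 0.974 and 1.87 in the controls, and *Dpt* was the minor transcript in every *K-Setd2KO* tumor. The pair was picked with its values known, and no test was made of the ratio.

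To set the alveolar against the adventitial genes as groups, the mean log2 CPM of the 5 adventitial members was subtracted from that of the 5 alveolar members in each tumor. This difference was 2.75, 2.13, 2.13 and 1.84 over the *K-Ctrl* replicates, against 1.51, 2.00, 1.53 and 1.72 over those of *K-Setd2KO*. The means were 2.21 ± 0.382 and 1.69 ± 0.226 (SD, n = 4 each), the groups overlapped, and the change of -0.52 is a description with no test. It was -0.88 without *Gsn* and *Npnt*, which other cells make too, and -0.34 without *K-Ctrl* replicate 1. The adventitial mean includes *Lum* and *Pi16*, which rest on 117 and 127 counts and changed by -0.50 and -1.31 in log2 CPM. The difference was not read without these low-count genes, so it does not show that alveolar genes fell more than adventitial ones. The alveolar mean was 6.44 ± 0.791 and 4.55 ± 0.600 log2 CPM, and the adventitial mean 4.23 ± 0.420 and 2.86 ± 0.585.

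Members were also read relative to the mean log2 CPM of 11 general fibroblast genes such as collagen and matrix processing genes, a comparison added after seeing the data. The list mean was 4.72 ± 0.743 in knockout tumors, against 6.03 ± 0.329 in control tumors (SD, n = 4 each). The 8 members with at least 500 counts were examined, and 2 of them, *Dpt* and *Dcn*, had groups without overlap on this scale. *Dpt* relative to the list was 0.20, -0.36, -0.13 and -1.50 over the *K-Ctrl* replicates, against -1.71, -3.65, -3.72 and -2.43 over those of *K-Setd2KO*, a difference of -2.43 (exact permutation p = 0.0286). Groups without overlap always give this smallest p, so it adds nothing to the separation. Such a separation in the lower direction occurred for 0.168% of 14918 genes, a share held low by the fall of the reference list itself. *Dcn* relative to the list was -0.43, -0.56, 0.02 and -1.18 over the *K-Ctrl* replicates, against 0.77, 1.26, 1.17 and 0.79 over those of *K-Setd2KO*, a difference of 1.54 (exact permutation p = 0.0286). A separation in the higher direction occurred for 54.5% of all genes, since the reference list itself was lower, so the *Dcn* separation is what the greater part of genes showed. *Pdgfra*, *Tcf21*, *Inmt*, *Mfap4*, *Gsn* and *Npnt* overlapped on this scale, with differences of -0.35, -1.16, -1.10, -0.95, -0.23 and 0.68. Without 1 tumor these ranged from -0.51 to -0.18 for *Pdgfra*, -1.51 to -0.87 for *Tcf21* and -1.68 to -0.62 for *Inmt*. The ranges were -1.46 to -0.52 for *Mfap4*, -0.63 to 0.20 for *Gsn* and 0.25 to 1.10 for *Npnt*.

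**Figure D3:**
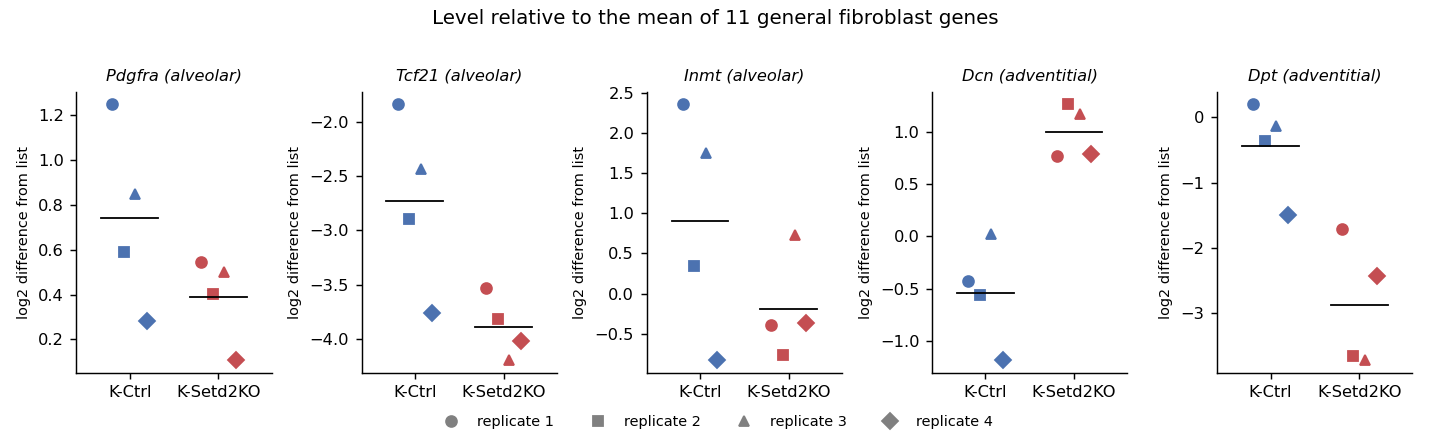
Log2 level of 5 members minus the mean log2 CPM of 11 general fibroblast genes in each tumor (*K-Ctrl* blue, *K-Setd2KO* red, 1 symbol per replicate number, black line at the group mean, vertical scales differ between panels). *Dpt* separates downward by -2.43 and *Dcn* upward by 1.54, while the groups overlap for *Pdgfra*, *Tcf21* and *Inmt*.

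Other genes of each subtype were read from lists that hold no member. For the elastic fiber list and the lists that follow with 0 genes higher by edgeR, the adipocyte list excepted, 0 were also higher at an unadjusted p under 0.05 and by DESeq2 and limma voom. Of 11 other alveolar fibroblast genes, 6 were lower and 0 higher, with a median log2 fold change of -2.51. *Wnt2*, a ligand of lung mesenchyme, went from 3.53 ± 2.41 to 0.227 ± 0.186 CPM (SD, n = 4 each), a log2 fold change of -3.89 (SE 0.807, adjusted p = 0.0177, edgeR). Its *K-Setd2KO* levels, 0 to 0.411 CPM with 1 tumor at 0, were at about the level of 3 counts, so the size of this fold change is uncertain. *Wnt2* is among the 6 called lower but passed the low-count filter through its *K-Ctrl* tumors alone, so its call is not read as support. *Limch1*, an actomyosin regulator, went from 395 ± 199 to 131 ± 26.1 CPM (log2 fold change -1.59, SE 0.331, adjusted p = 0.0181). *Fgf10* and *Fgf7*, growth factors for the alveolar epithelium, fell by 2.39 and 2.77 (adjusted p = 0.0292 and 0.0233).

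Of 15 other adventitial fibroblast genes, 13 could be tested, 4 were lower and 0 higher, with a median of -1.07. *Fbln1*, a matrix glycoprotein, went from 17.2 ± 9.06 to 3.28 ± 1.56 CPM (log2 fold change -2.42, SE 0.458, adjusted p = 0.0135, edgeR). *Pcolce2*, an enhancer of procollagen processing, went from 65.1 ± 52.0 to 5.81 ± 3.48 CPM (log2 fold change -3.51, SE 0.664, adjusted p = 0.0141). The alveolar and adventitial lists both held genes that did not pass the test, and the difference between the lists was not tested.

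Of the 11 general fibroblast genes, 4 were lower and 0 higher (median -1.03), among them *Serping1*, the C1 inhibitor (log2 fold change -1.60, adjusted p = 0.0168), and *Olfml3* (-1.68, adjusted p = 0.0214). Of 9 genes of activated fibroblasts, 8 could be tested, 2 were lower and 1 higher (median -0.17). *Hhip*, an inhibitor of hedgehog signaling, fell by 2.44 and *Postn*, which encodes periostin, by 1.83 on the log2 scale (adjusted p = 0.0117 and 0.0325, edgeR). *Grem1*, a secreted BMP antagonist, rose from 3.08 ± 1.49 to 11.5 ± 6.85 CPM (log2 fold change 1.89, adjusted p = 0.0455), although the groups overlapped and limma voom called 0 genes of this list higher. Of 6 TGF-beta ligands and receptors, 2 were lower and 0 higher (median -0.53), namely *Tgfb2* (log2 fold change -1.71, adjusted p = 0.00738) and *Tgfb3* (-1.0, adjusted p = 0.0255).

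**Figure D4:**
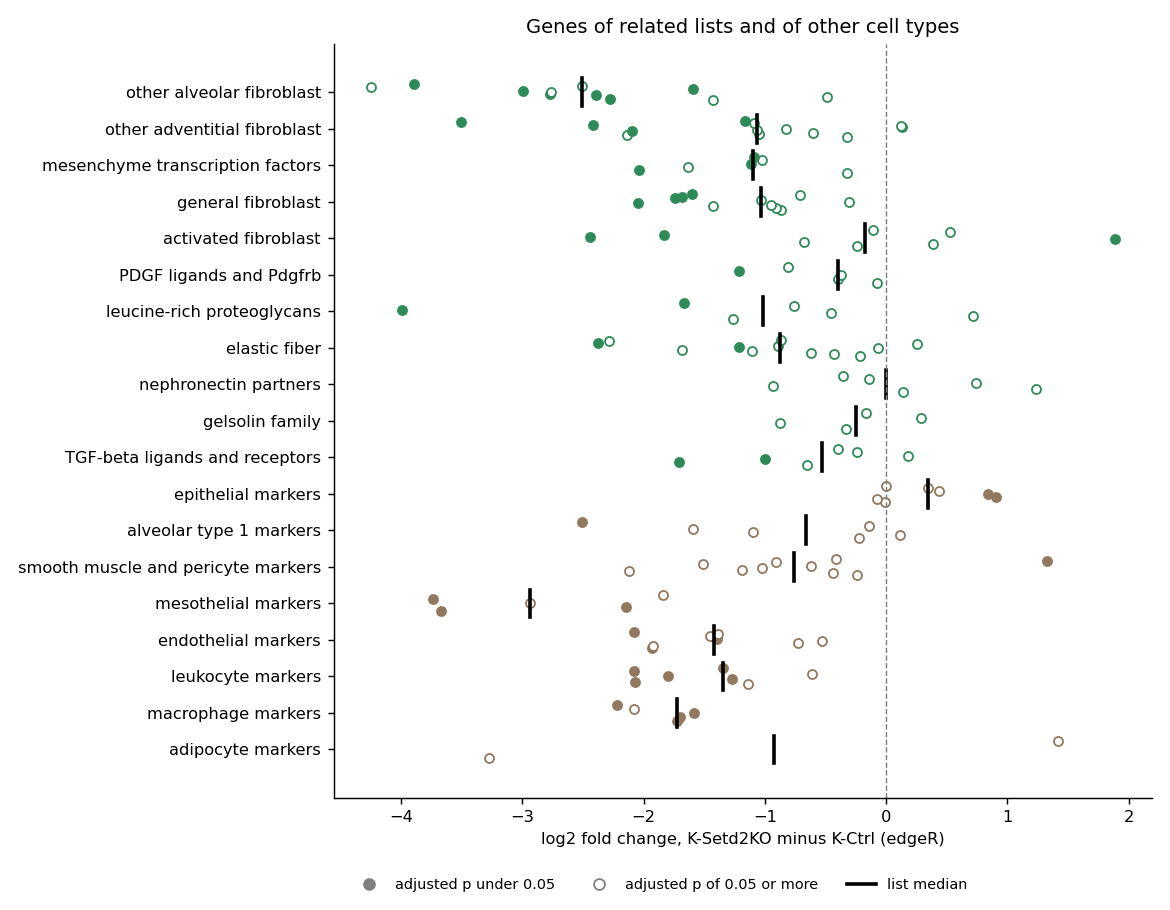
Log2 fold change (*K-Setd2KO* minus *K-Ctrl*, edgeR, horizontal axis) of each tested gene in 11 fibroblast and pathway lists (green) and 8 marker lists of other cell types (brown), filled where the adjusted p is under 0.05, with a black bar at each list's median. The median is -2.51 for other alveolar genes and -1.07 for other adventitial genes, and the mesothelial, endothelial, leukocyte and macrophage medians lie between -2.94 and -1.34.

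Markers of other cell types moved with the members, and their part in the results was not tested. Of 8 endothelial markers 3 were lower and 0 higher, with a summed level of 489.95 to 1793 CPM in control tumors against 188 to 466 CPM in knockout tumors. Of 7 leukocyte markers 5 were lower (1031 to 1825 against 556 to 771 CPM), and of 5 macrophage markers 4 were lower (424 to 1422 against 145 to 290.0 CPM). Mesothelial markers, of which 5 of 6 could be tested and 3 were lower, summed to 20.6 to 93.3 CPM and 2.37 to 18.7 CPM. DESeq2 called 6 endothelial, 5 leukocyte, 5 macrophage and 5 mesothelial markers lower, and limma voom 1, 5, 4 and 1. These 4 sums did not overlap between the genotypes, and the first marker of each list had a log2 fold change of -1.39 for *Pecam1* (adjusted p = 0.0699), -2.08 for *Ptprc* (adjusted p = 0.00560), -1.73 for *Adgre1* (adjusted p = 0.00945) and -2.14 for *Msln* (adjusted p = 0.0252).

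The summed markers of the tumor epithelium and of mural cells overlapped between the genotypes. The 7 epithelial markers, 2 of which rose and 0 fell, summed to 24355 to 36436 CPM in control tumors and 25381 to 34857 CPM in knockout tumors, sums made up mostly of *Sftpc*, the surfactant protein C gene (25164 and 25119 CPM on average). The 2 that rose, *Epcam* and *Krt18*, had groups without overlap. *Epcam*, an epithelial adhesion protein, rose from 242 ± 56.6 to 453 ± 73.9 CPM (log2 fold change 0.90, adjusted p = 0.0177, edgeR). The 10 smooth muscle and pericyte markers, with 0 lower and 1 higher by edgeR, summed to 149 to 234 CPM and 148 to 233 CPM, and *Acta2* had a log2 fold change of -0.24 (adjusted p = 0.772). At an unadjusted p under 0.05, 5 of these mural markers were lower, and after adjustment DESeq2 called 4 lower and limma voom 0. *Rgs5*, a pericyte gene, was the marker that rose, from 36.8 ± 15.7 to 91.6 ± 30.2 CPM (log2 fold change 1.32, adjusted p = 0.0430, edgeR). It made up a large part of the mural sum in knockout tumors, while every other mural marker had an estimate below 0 (list median -0.76). Of 6 alveolar type 1 markers 1 was lower (1972 to 3770 against 1252 to 2315 CPM), namely *Rtkn2* (log2 fold change -2.51, adjusted p = 0.00929), while *Ager* had a log2 fold change of -0.23 (adjusted p = 0.611). At an unadjusted p under 0.05, 3 of these were lower, and after adjustment DESeq2 called 3 lower and limma voom 1. Of the 4 adipocyte markers 2 could be tested and 0 were called by edgeR (1 lower and 1 higher at an unadjusted p under 0.05, 1 lower by DESeq2 and 0 by limma voom), and the defining gene *Adipoq* was at 0 counts in all 8 tumors.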

How the data were processed

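The authors deposited 1 table of raw counts per gene with a column per tumor, its genes' coordinates and exon lengths (the deposited Length column, another value of the file, used for CPM per kb). Per the labels' processing notes, STAR 2.5.2b, featureCounts 1.5.0-p1 and GRCm38.p4 were used. Whether counting used the strand and which annotation release was used are not given in the sources used here. Symbols came from GENCODE M21 (48349 identifiers matched, 99.26%). Upstream sequences came from RefSeq on GRCm38.p6.

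Genes were filtered with filterByExpr (14929 kept), scaled by TMM and compared by genotype alone with edgeR 4.0.16 in R 4.3.3 (robust quasi-likelihood test, Benjamini-Hochberg adjustment, threshold 0.05). SEs were taken from the log2 fold change and the test's F value (its size over the root of F). Log2 CPM used a prior count of 2. The study compared the genotypes with DESeq2, run here as an alternative (1.42.0), as was limma voom (3.58.1). No pair of tumors within a group was a copy (chi-square per degree of freedom at least 30.5).

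The members and lists were chosen with earlier results of these data known. Named genes are the members, the 2 tested genes with the smallest p of each fibroblast or pathway list, the first gene of each marker list, and *Setd2*. *Itga8*, *Fgf7*, *Fgf10*, *Grem1*, *Rgs5*, *Rtkn2*, *Krt18*, *Sftpc*, *Bgn*, *Kera*, *Epyc* and *Mapk7* were named after their values were seen.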

Additional observations from a re-analysis of the deposited data

Results flagged for a closer look

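*Pdgfra* in *K-Ctrl* replicate 1 was 176.5 CPM, farther from the other 3 controls (86.5 to 97.8 CPM) than Dixon's 95% limit for 4 samples allows. It was the single tumor set apart among 20 groups of 4 values examined, the 10 members in each genotype, and chance alone sets apart about 1 in 20 groups. The same tumor had the highest endothelial (1793 CPM), alveolar type 1 (3770 CPM), mesothelial (93.3 CPM) and adipocyte (19.5 CPM) marker sums of the 8 tumors. Its leukocyte, macrophage, mural and epithelial sums were not the highest. Its general fibroblast sum (1114 CPM) lay below that of *K-Ctrl* replicate 4 (1486 CPM). The part of these cell types in the *Pdgfra* value was not tested.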

How the results depend on the processing

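edgeR with genotype alone called 1897 genes, DESeq2 3194 and the fit with sex as a term 1237, of which 1024 were among the 1897. Fits without 1 tumor gave 763 (without *K-Ctrl* replicate 3) to 2058. Of the 3 alveolar members called lower, 1 was left without the low-count filter and 1 with sex as a term (*Pdgfra*), and 1 to 3 in fits without 1 tumor, 1 being reached without *K-Ctrl* replicate 1, *K-Ctrl* replicate 3 or *K-Setd2KO* replicate 4. Of the 2 adventitial members, 0 were left without the filter and 1 with sex as a term (*Dpt*), and 0 to 2 in fits without 1 tumor, 0 being reached without the same 3 tumors and 1 without *K-Setd2KO* replicate 2 or 3. Where 0 were left, the log2 fold changes of *Dpt* and *Gsn* stayed negative. Without the filter they were -3.22 and -1.59, and those of *Pdgfra* and *Inmt*, whose calls were also lost there, were -1.59 and -2.81. The cause of the lost calls was not tested. Log2 fold changes turned for *Npnt* between female tumors (0.054), for *Dcn* with sex as a term (-0.048) and between male tumors (-0.66), and for *Lum* without *K-Setd2KO* replicate 2 (0.16) or 3 (0.14), where fits without 1 tumor ran from -1.15 to 0.16. *Gsn* relative to the general fibroblast list turned without *K-Ctrl* replicate 1 (0.036) or *K-Setd2KO* replicate 4 (0.20), in a range of -0.63 to 0.20. No other direction turned among the members, their levels relative to that list and the alveolar minus adventitial difference. Directions of the other named genes were not read in these fits.

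Replicate numbers did not pair the tumors (correlations of deviations -0.07, -0.03, 0.19 and -0.02 for numbers 1 to 4). A replicate block called 1341 genes, 1176 of them among the 1897, and left the members called at 3 alveolar and 2 adventitial. *Lum* (117 counts) and *Pi16* (127 counts) had the fewest counts of the members, and with 4 tumors a genotype the exact permutation test cannot go below 0.0286. Sex was uneven between genotypes, and within a sex 1 tumor stood against 3.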
